A study of Mus musculus with 16 samples.

Results

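The arrays labelled Dll4-Fc were set against those labelled hFc, 4 arrays in each group, which makes 8 of the 16 arrays of the series. The treatment label of each array gave its group, and all genes measured were compared. Dll4-Fc is the extracellular part of the Notch ligand Dll4 joined to the Fc part of an antibody, and hFc is the Fc part alone, so both groups received an Fc part. C57Bl6 mouse pups received 4 µg of either protein in the eye at 8 days of age, and retinas were taken 24 h later. The other arrays were of retinas after 1 µg of VEGF-A (5 arrays) also given at 8 days, or after VEGF Trap (3 arrays), a decoy receptor for VEGF whose dose and day the labels do not give. They served here as further groups to set beside the Dll4-Fc arrays. The hFc arrays fill one slide, the Dll4-Fc arrays another, and VEGF-A and VEGF Trap share the remaining slides. Slide and treatment therefore cannot be told apart in any of the comparisons of Dll4-Fc. The hFc arrays 1 and 2 share the first part of their sample code, and VEGF Trap 3 and VEGF-A 4 likewise share theirs. The labels do not say that samples were separate animals, so p-values measure the spread between these samples, which may be technical. No uninjected retinas were analysed here.

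Notch receptors are activated by Delta and Jagged ligands on neighbouring cells. The released intracellular part of the receptor joins RBPJ on DNA and turns on repressors of the Hes and Hey families, which hold back proneural factors such as Neurog2 and Atoh7. In the retina this pathway keeps progenitors undifferentiated, favours Müller glia over neurons, and in growing vessels limits the number of sprouting tip cells through Dll4. A soluble Dll4 can block that signal. Interferon signalling is a separate system, in which sensors of foreign nucleic acid lead to interferons, and transcription factors, those of the IRF family among them, then turn on antiviral genes.

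Each value below is the log2 ratio of a sample over the common reference pool, which per the labels held equal amounts of RNA from the samples of this experiment. A gene was called when limma's moderated test gave a Benjamini-Hochberg adjusted p under 0.05, 2-sided, over all genes tested. Between 84.9 and 88.6% of the spots on the 8 arrays were well above background in Cy3. Genes of retinal cell types were detected: 11 of 12 measured rod genes, and all 12 bipolar, 14 amacrine and horizontal, 12 ganglion cell and 28 Müller glia genes, were well above background on all 8 arrays. This does not identify the tissue, since all 8 lens, 8 pigment epithelium and 20 endothelial genes and 12 of 13 lymphocyte genes also passed. A band of the hFc slide, rows 64 to 233 of 532, held between 2330 and 2566 outlier spots per array, where the same rows of a Dll4-Fc array held 2 to 70. Genes read from it are marked (band): 316 of 7020 tested there were higher and 64 lower, against 444 and 378 of 15800 elsewhere.

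Retinas given Dll4-Fc differed from hFc retinas in 1202 of 22820 genes (5.27%), with 760 higher (3.33%) and 442 lower (1.94%). These shares of all genes are the ones to set beside the count of each list below. The higher genes included many of the interferon response, antigen presentation, complement, Fc receptors and microglia, as well as proneural factors and the Delta-like ligands Dll1 and Dlk1. The lower genes included most of those listed for Müller glia and part of the Notch effectors. At least 2-fold differences were seen in 233 called genes higher and 50 lower. The median difference over all genes was −0.015. Against VEGF-A 3227 of 23362 genes (13.8%) were called, and against VEGF Trap 3435 (14.7%). All 3 comparisons share the Dll4-Fc arrays. In 754 of 23272 genes (3.24%) the Dll4-Fc values lay outside those of every other array, above in 500 (2.15%) and below in 254 (1.09%). Against hFc alone the groups did not overlap in 3328 of 22820 genes (14.6%), with Dll4-Fc above in 1687 (7.39%) and below in 1641 (7.19%).

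**Figure D1:**
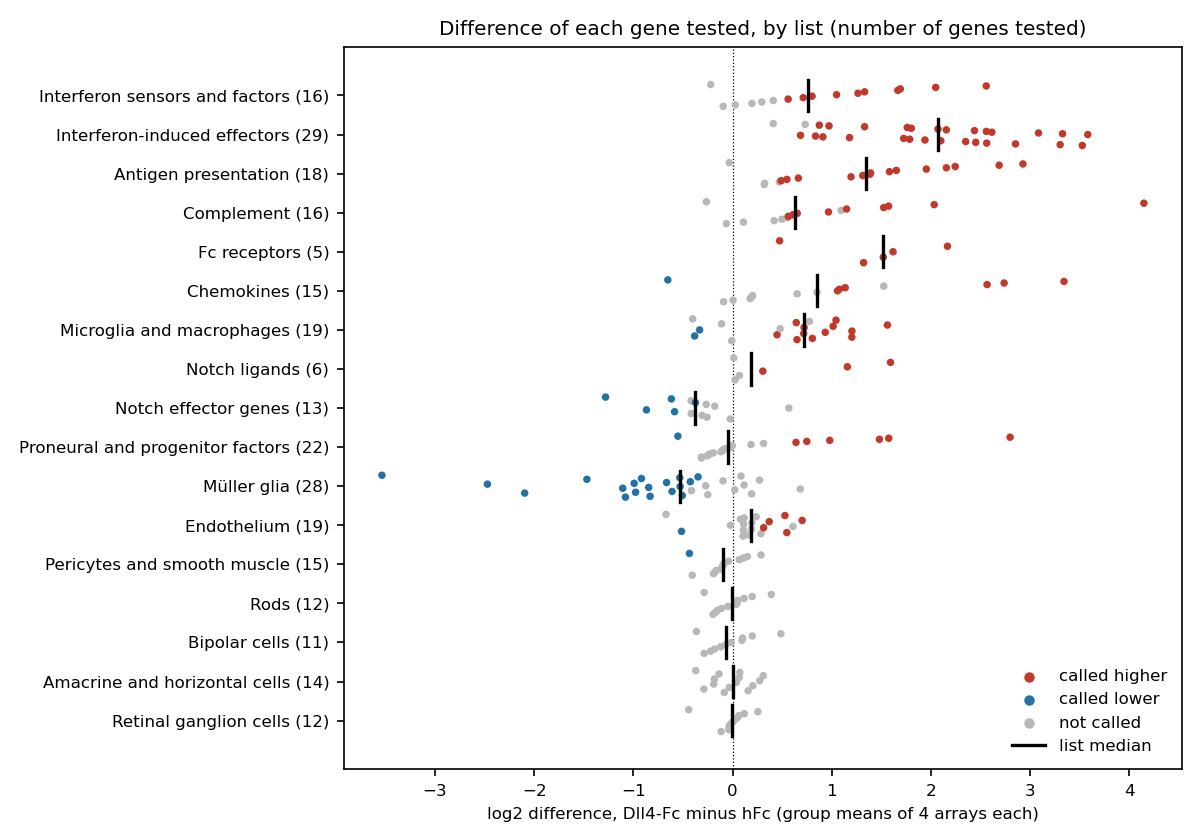
Log2 difference between Dll4-Fc and hFc (horizontal axis, group means of up to 4 measured arrays) for every gene tested in 17 of the gene lists; red points were called higher, blue points lower, grey points not called, and black ticks are list medians. Interferon-induced effectors have the highest median at 2.07, Müller glia genes reach furthest to the left with a median of −0.53, and the 4 neuronal lists at the bottom lie around 0 with no gene called.

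Antiviral effectors downstream of interferon rose together. Of 29 tested, 27 were called higher and 0 lower, with a median difference of 2.07 (3.33% of all genes were called higher). Usp18, the protease that removes ISG15 from proteins and damps interferon signalling, read 0.45, 2.27, 2.54 and −0.24 on the Dll4-Fc arrays and −2.54, −2.48, −2.37 and −1.91 on the hFc arrays. All Dll4-Fc values lay above all hFc values, with Dll4-Fc 2 and Dll4-Fc 3 far above Dll4-Fc 1 and Dll4-Fc 4. The rise was 3.58 (SE 0.45, adjusted p = 7.08e-05), or 12-fold. Bst2, the membrane protein that tethers budding virions, read 0.97, 1.98, 2.19 and 0.51 against −1.9, −1.91, −2.0 and −1.74 and rose by 3.3 (SE 0.27, adjusted p = 1.01e-06). Its groups did not overlap, and Dll4-Fc 4 was again the lowest of the treated arrays. Isg15, a ubiquitin-like protein conjugated to others after interferon, lies in the band and rose by 2.85 (SE 0.29), with 2.57 on another probe, 3.11 against VEGF-A and 2.68 against VEGF Trap. Rises of the same order were seen for Ifi27l2a (3.53), the DNA sensor family member Ifi204 (3.33, but 0.013 on 1 of its other probes), the receptor chaperone Rtp4 (3.08) and Ifitm3, which blocks viral entry (2.56, SE 0.19, adjusted p = 4.06e-07).

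Among the enzymes and GTPases, Oas1a, which makes the oligoadenylate that activates RNase L, rose by 2.35 (SE 0.25). The interferon-induced GTPases Gbp2 (1.94), Gbp3 (1.72), Igtp (1.33) and Irgm1 (1.8), which act on vacuoles that hold microbes, all rose, Gbp3 by 2.62 with the deposited LogRatio column. Ifit1, which binds viral RNA ends, was not well above background on any hFc array and was at least 1.38-fold higher with Dll4-Fc, where it read 0.10, 0.19, 0.91 and 0.055. By its measured values it differed by 0.68 (adjusted p = 0.00934) but was no longer called with the Cy3 channel alone (0.53) and with only these 2 groups fitted (0.68), and it gave 2.38 with the deposited LogRatio column. Tgtp1, another interferon-induced GTPase, rose by 3.0 on its brighter probe and gave 0.44 on the other. The same list was higher in 28 genes against VEGF-A (median 2.11, with 6.31% of all genes higher) and in 27 against VEGF Trap (median 1.77, with 8.97%). Over the alternative settings between 24 and 28 of its genes were higher than in hFc, and 25 of 27 without the band.

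The promoters of this list were searched for a motif chosen, like the list, with earlier results of these data known. The list was made of known interferon-induced genes, so its share of matches is not a result of these arrays. RefSeq tables of build GRCm38.p6 held promoters for 21 of the 30 symbols, and the 250 bases before each start were scanned on both strands for GAAA, then NN (any bases), then GAAA, the core of the interferon-stimulated response element, with overlapping matches counted. It was found in 12 of 24 promoters of the list (50%), against 978 of 32851 promoters overall (2.98%). The 24 include that of Xaf1, which was not measured. The stretches shown are examples from genes that rose by 1.33 to 3.3, chosen after their values were seen, in the direction of the gene, with the matches on either strand in capitals. A match describes the letters only, and Ifitm3 (2.56) and Oasl2 (band, 2.45) rose with no match in their window. Oas3 (0.73) has 1 match and was not called. Isg15 has 3 overlapping matches (chr4:156200845-156200926, minus strand), Bst2 has 2 (chr8:71537557-71537632, minus strand), Oas1a has 2 (chr5:120907526-120907575, minus strand), Gbp2 has 1 (chr3:142620574-142620643, plus strand) and Igtp has 1 (chr11:58199492-58199555, plus strand).
Isg15: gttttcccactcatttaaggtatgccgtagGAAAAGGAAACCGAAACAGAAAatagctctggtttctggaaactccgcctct
Bst2: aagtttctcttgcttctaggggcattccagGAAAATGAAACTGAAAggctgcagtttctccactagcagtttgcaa
Oas1a: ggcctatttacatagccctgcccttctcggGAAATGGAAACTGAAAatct
Gbp2: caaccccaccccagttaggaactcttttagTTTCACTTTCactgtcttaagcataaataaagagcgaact
Igtp: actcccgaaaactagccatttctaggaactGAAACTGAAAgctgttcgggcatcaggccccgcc

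Of the sensors and transcription factors of the interferon system, 10 of 16 were called higher and none lower (median 0.76, with 3.33% of all genes higher). Irf7, the factor that amplifies interferon production, read 0.94, 1.51, 2.28 and −0.0071 with Dll4-Fc and −1.3, −1.49, −1.53 and −1.18 with hFc, and rose by 2.56 (SE 0.35, adjusted p = 0.000145). Dll4-Fc 4 stood lowest of the treated arrays yet above all hFc arrays. Sting1, the adaptor of DNA sensing, rose by 0.80 (SE 0.11). The nucleic acid sensors Dhx58 (1.69), Ifih1 (1.05), Ddx58 (1.33, band) and Zbp1 (2.05, band) also rose. The last 2 gave 1.04 and 2.17 against VEGF-A, and the mean of all Ddx58 probes gave 0.81 against hFc. Irf8, a factor of myeloid cells, rose by 0.71 (SE 0.09) but was lower than with VEGF-A (−0.34, adjusted p = 0.00722).

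Of 7 interferon and receptor genes tested, 1 was called (5.27% of all genes were), the receptor subunit Ifnar2, at 0.31 (SE 0.08, adjusted p = 0.0415), with 0.018 against VEGF-A. The call was lost in 12 of 20 alternative settings, among them leaving out hFc 2 (0.25), hFc 3, hFc 4, Dll4-Fc 1, Dll4-Fc 2 or Dll4-Fc 3 (0.31). Ifng, the type II interferon made by lymphocytes, read −0.016, −0.025, 0.32 and 0.13 against −0.079, −0.26, −0.25 and −0.056, and its difference of 0.26 was not called (adjusted p = 0.127). Ifnb1, interferon beta, was not among the genes measured. Among the sensors and factors not called were Irf3 (band, 0.028), which starts interferon beta transcription, and Mavs (−0.22), the adaptor of the RNA sensors.

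Antigen presentation genes were called higher in 14 of 18 (3.33% of all genes were), with a median of 1.35, 1.23 against VEGF-A and 1.12 against VEGF Trap. B2m, the light chain shared by class I molecules, read 0.48, 0.68, 1.28 and 1.16 with Dll4-Fc and −1.36, −1.43, −1.47 and −1.12 with hFc. The groups were far apart, and the rise was 2.24 (SE 0.19, adjusted p = 1.01e-06), although the call was lost with the Cy3 channel alone (1.61, adjusted p = 0.0598) and the mean of all its probes was 1.41. In the class I pathway H2-D1 rose by 1.38, the peptide transporter Tap1 by 1.19 and the immunoproteasome subunit Psmb9 by 1.65 (SE 0.20, adjusted p = 4.14e-05). Class II genes rose as well. H2-Aa (band), a class II chain, read 2.14, −0.19, 1.61 and 1.3 against −1.27, −1.03, −1.15 and −0.31, so that Dll4-Fc 2 stood close to the hFc arrays while the other treated arrays were far above. Its rise was 2.15 (SE 0.35, adjusted p = 0.000885), with 2.08 and 2.06 against VEGF-A and VEGF Trap and 3.27 from hFc with the deposited LogRatio column. H2-Ab1 (band) rose by 1.31 from hFc but lay −0.023 from VEGF Trap. H2-Eb1 (1.39) outside the band and the class II invariant chain Cd74 (2.93, band, 2 hFc arrays measured, 2.91 against VEGF-A) also rose, and so did Ciita, the master regulator of class II genes (0.49, SE 0.08, adjusted p = 0.00145, and 1.56 with the LogRatio column).

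The largest rise among genes named was that of the complement factor Cfb, part of the alternative pathway convertase. It read 1.87, 0.81, 2.16 and 1.14 on the Dll4-Fc arrays and −3.0, −2.88, −2.92 and −1.8 on the hFc arrays. The highest hFc value, on hFc 4, was still below every treated value. The difference was 4.15 (SE 0.27, adjusted p = 8.67e-08), or 17.7-fold, with 4.3 against VEGF-A and 3.72 against VEGF Trap. In all 9 of 16 complement genes were called higher and none lower (median 0.63, with 3.33% of all genes higher), and 6 of 12 without the band. Serping1, the inhibitor of C1, rose by 1.52 (SE 0.12), C4b by 1.57 (SE 0.16) and the C1q chains C1qa and C1qc, made by microglia, by 0.65 and 0.56. C3, the central component, gave 2.03 in the band with 2 hFc arrays measured, but 0.084 on a probe outside it, which ended the call.

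Receptors for the Fc part of IgG and their signalling chain were called higher in all 5 genes tested (median 1.52, with 3.33% of all genes higher). Fcgr1, the high-affinity receptor, read 1.13, 1.03, 1.79 and 0.95 against −0.92, −0.90, −0.91 and −1.03. The hFc values sat within a narrow range far below all treated values. Its rise was 2.17 (SE 0.14, adjusted p = 5.92e-08), with 2.31 and 2.1 against VEGF-A and VEGF Trap. The activating receptor Fcgr4 rose by 1.62 (SE 0.17), the inhibitory receptor Fcgr2b by 1.32 (SE 0.14) and their signalling chain Fcer1g by 1.52 in the band with 1 hFc array measured (1.52 against VEGF-A). Fcgr3 rose by 0.47 (adjusted p = 0.0127) but was no longer called without hFc 2 or Dll4-Fc 1 (0.40 to 0.43), and it gave 0.75 with the Cy3 channel alone. Fcgrt, which recycles IgG, had no hFc value and gave 0.78 against VEGF-A (adjusted p = 0.0223) and 0.017 against VEGF Trap (adjusted p = 0.977). With outlier spots kept Fcgrt differed from hFc by 0.54 and was not called (adjusted p = 0.191).

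Chemokines were called higher in 6 of 15 genes and lower in 1 (median 0.85, with 3.33% of all genes higher and 1.94% lower). Ccl12, an attractant of monocytes, read 0.78, 1.31, 2.12 and 0.60 against −1.47, −1.62, −1.34 and −1.03 and rose by 2.57 (SE 0.25, adjusted p = 5.27e-06). Ccl6 and Ccl9, chemokines of myeloid cells, rose by 1.08 (SE 0.11) and 1.14 (SE 0.15). Ccl2, which acts on the same receptor as Ccl12, read −0.10, −0.16, 1.86 and −0.22 against −2.91, −2.14, −2.77 and −1.76, a rise of 2.74 (SE 0.38, adjusted p = 0.000202). Dll4-Fc 3 alone was far above the rest for Ccl2, and against VEGF-A the difference was −0.59 (adjusted p = 0.37). The T cell attractant Ccl5 (band) rose by 3.34, with 2.9 on another probe, and the interferon gamma-induced Cxcl9 by 1.06 (SE 0.19). Cxcl9 gave 3.04 with the deposited LogRatio column and 3.23 with the authors' deposited values. Cxcl10 differed by 1.52 with values of −0.037, −0.46, 2.6 and 0.47, and was not called (adjusted p = 0.0713). It was called in 4 of 19 alternative settings: the LogRatio column (3.58), the authors' deposited values (3.58), median centring (1.66) and leaving out Dll4-Fc 2 (1.89). Without Dll4-Fc 3 its difference was 0.87. Cxcl16, a membrane-bound chemokine, fell by 0.65 (SE 0.11, adjusted p = 0.00164).

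Acute inflammation was mixed. Of 17 genes of adhesion and acute inflammation 6 were higher and 1 lower (3.33% and 1.94% of all genes were), and 3 and 1 of 12 without the band. The siderophore-binding protein Lcn2 (band), induced in reactive glia and neutrophils, read 1.46, −0.77, 2.02 and 1.88 against −1.39, −1.18, −1.05 and −1.08. Dll4-Fc 2 was only just above the hFc arrays. The rise was 2.33 (SE 0.42, adjusted p = 0.00184), with 1.43 on another probe and 2.24 against VEGF-A. The acute phase protein Saa3 rose by 1.42 (SE 0.22) and the bacterial lipopeptide receptor Tlr2 by 1.25 (SE 0.15). With the deposited LogRatio column Saa3 gave 4.01, and with the authors' deposited values 4.14. Icam1 (band), a ligand of leukocyte integrins, rose by 0.67 from hFc and lay −0.039 from VEGF-A. Vcam1, another such ligand, moved the other way: it read −1.21, −1.51, −0.63 and −0.69 against 0.30, 0.38, 0.42 and 0.21 and fell by 1.34 (SE 0.16, adjusted p = 5.05e-05), with −0.90 against VEGF-A and −1.27 against VEGF Trap. Its other probes ranged from −1.42 to 0.09. Il1b was not well above background on any hFc array, so no difference is given for it.

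Microglia and macrophage markers were called higher in 12 of 19 genes and lower in 2 (median 0.72, with 3.33% of all genes higher and 1.94% lower). From bulk tissue, more cells of a type and more RNA per cell cannot be told apart. Aif1, the actin-binding protein of microglia, read 0.83, 0.79, 1.14 and 0.88 against −0.50, −0.71, −0.63 and −0.75, with no overlap, and rose by 1.56 (SE 0.08, adjusted p = 8.68e-09). Tmem119, a marker of resident microglia, rose by 1.04 (SE 0.10), the macrophage receptor Adgre1 by 1.01 (SE 0.16), lysozyme Lyz2 by 1.2 (SE 0.21) and the protease Ctss (band) by 1.2, with 0.97 against VEGF-A. Itgam (band), the CD11b integrin, rose by 0.93 with 0.16 on another probe. P2ry12, the nucleotide receptor of surveying microglia, was lower on the same arrays. It read −0.17, −0.29, −0.28 and 0.0089 against 0.22, 0.18, 0.19 and 0.20 and fell by 0.38 (SE 0.08, adjusted p = 0.00845), with −0.014 on another probe, and was no longer called with the mean of all its probes (−0.20). Siglech, a microglial lectin, also fell, by 0.33 (adjusted p = 0.0251) but was no longer called without hFc 2, hFc 3, Dll4-Fc 1, Dll4-Fc 2 or Dll4-Fc 3 (−0.34 to −0.27), with median centring (−0.27) and with only these 2 groups fitted (−0.33). It gave −0.54 with the LogRatio column.

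Of the genes that mark activated microglia, 4 of 10 were higher (3.33% of all genes were). Spp1, osteopontin, rose by 3.57 in the band with 2 hFc arrays measured, and by 2.54 on another probe. The cathepsin inhibitor Cst7 (band) rose by 0.98 (1.13 against VEGF-A), the beta-glucan receptor Clec7a by 0.84 (SE 0.15) and the integrin Itgax by 0.66 (SE 0.09), although another Itgax probe gave −0.0025 and the LogRatio column 1.04. No neutrophil gene of 11 was called by limma, while 3 had an unadjusted p under 0.05, all higher. Only 7 of the 11 were well above background on all 8 arrays. Against VEGF-A 3 neutrophil genes were higher (6.31% of all genes were), and against VEGF Trap 2 (8.97%). Without Dll4-Fc 2, 3 were called higher: S100a9 (1.37, adjusted p = 0.00127), S100a8 (0.87) and Csf3r (0.43). S100a9, a calcium-binding protein of neutrophils, read 1.62, −0.56, 0.92 and 1.29 against 0.55, −0.54, −0.25 and −0.13, and the groups overlapped. Among 13 lymphocyte genes 3 were higher (3.33% of all genes were), with the T cell surface protein Cd2 (band) at 0.70 and the killer cell receptor Klrd1 at 1.03 (adjusted p = 0.00414). Klrd1 gave 3.08 with the deposited LogRatio column and 2.43 with the authors' deposited values. The B cell antigen Ms4a1 was called at 0.22 (adjusted p = 0.0405) but was no longer called in 11 of 19 alternative settings, among them leaving out hFc 1, hFc 2, hFc 3, hFc 4, Dll4-Fc 2, Dll4-Fc 3 or Dll4-Fc 4 (0.18 to 0.23), and it gave 0.67 with the LogRatio column. The CD3 chain Cd3e (band) of T cells differed by 0.02 (adjusted p = 0.935). No red cell gene of 5 was called, and none had an unadjusted p under 0.05, but only 3 were well above background on all 8 arrays.

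**Figure D2:**
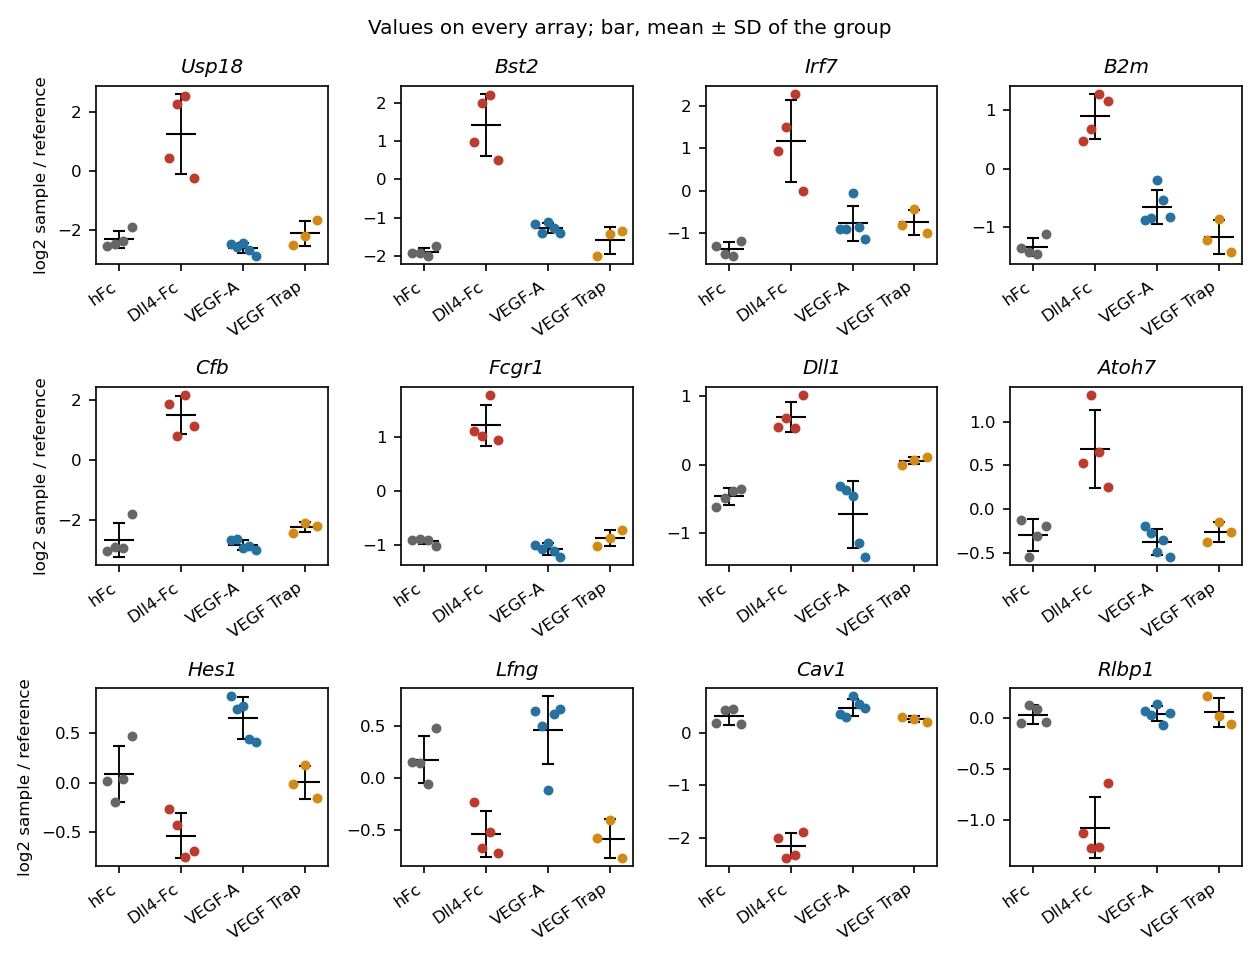
Log2 ratio of sample over reference on every array for 12 genes (vertical axes, each with its own scale), with the arrays grouped by treatment along the horizontal axis; points are arrays and bars are the group mean ± SD. For Usp18, Bst2 and Irf7 the Dll4-Fc points are spread widely but lie above all others, while for Cav1 and Rlbp1 they lie below all others.

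The Notch pathway itself was next examined. The receptors were not called: Notch1 gave 0.18 (adjusted p = 0.617), Notch2 (band) −0.027, Notch3 −0.41 and Notch4 0.20, and 1 receptor in each direction had an unadjusted p under 0.05. Notch3 was called lower in 2 alternative settings, with only these 2 groups fitted and without Dll4-Fc 2 (−0.49). Ligands were called higher in 3 of 6 (3.33% of all genes were). Dll1, the ligand of differentiating neural cells, read 0.56, 0.68, 0.53 and 1.02 against −0.62, −0.49, −0.38 and −0.35. Dll4-Fc and hFc values were well apart, and Dll1 rose by 1.16 (SE 0.20, adjusted p = 0.00114), with 1.43 against VEGF-A and 0.64 against VEGF Trap, the last not called (adjusted p = 0.0534). Dlk1, a noncanonical ligand that lacks the Notch-activating DSL domain, read 1.36, 1.48, 1.36 and 0.40 against −0.31, −0.22, −0.77 and −0.45 and rose by 1.59 (SE 0.19, adjusted p = 4.28e-05). Dll4-Fc 4 was the lowest of its treated values. Dll3, a Delta-like protein that acts within the cell, had no hFc value in the band once outliers were left out. It was 1.66 above VEGF-A and 1.63 above VEGF Trap, and its probe outside the band gave 1.11 against hFc. Dll4 itself, the endothelial ligand, read −0.25, −0.38, −0.32 and −0.44 against −0.76, −0.63, −0.68 and −0.55 and rose by 0.30 (adjusted p = 0.0129) but was no longer called without Dll4-Fc 1 (0.27), with median centring (0.27) and with the mean of all its probes (0.19), and it gave 0.55 with the Cy3 channel alone. It lay −1.58 from VEGF-A and 1.15 from VEGF Trap. Jag1 gave 0.068 and was not called.

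Of 18 genes for receptor processing and nuclear factors 1 was higher and 1 lower. Over all genes 3.33% were higher and 1.94% lower, so these counts are not read as a result about the list. Both called genes are Fringe glycosyltransferases, which tune the response of Notch to its ligands, and they moved in opposite directions. Lfng read −0.23, −0.68, −0.52 and −0.72 against 0.15, 0.14, −0.057 and 0.48 and fell by 0.72 (SE 0.16, adjusted p = 0.0142) but was no longer called without hFc 4 (−0.62). It was also −1.0 from VEGF-A, but 0.048 from VEGF Trap. Mfng (band) rose by 0.50 (SE 0.08), with 0.34 on another probe, 0.01 against VEGF-A and 0.62 against VEGF Trap.

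Effector genes of Notch were called lower in 5 of 13 and higher in 0 (median −0.37, with 1.94% of all genes called lower), and between 3 and 8 were lower over the alternative settings. Hes5 (band), the effector of neural progenitors, read −0.68, −0.67, −0.89 and −1.25 against 0.52, 0.33, 0.31 and 0.47. Dll4-Fc 4 was the lowest, and no value overlapped. Hes5 fell by 1.28 (SE 0.13, adjusted p = 7.95e-06), gave −1.37 on another probe, and lay −1.14 from VEGF-A and −0.73 from VEGF Trap. Hey2 (band), an effector in vessels and heart, fell by 0.87 (SE 0.11, adjusted p = 0.000115) with 3 hFc arrays measured. Hes1 read −0.27, −0.43, −0.75 and −0.69 against 0.014, −0.20, 0.036 and 0.47 and fell by 0.62 (adjusted p = 0.0181) but was no longer called without hFc 4, Dll4-Fc 3 or Dll4-Fc 4 (−0.56 to −0.49). Hey1 fell by 0.37 (adjusted p = 0.00692) but was no longer called in 4 of 20 alternative settings. Id3, an inhibitor of proneural proteins, fell by 0.58 (adjusted p = 0.0202) but was no longer called in 8 of 20 alternative settings, among them leaving out hFc 1, hFc 3, Dll4-Fc 1 or Dll4-Fc 3 (−0.57 to −0.52). Nrarp (band), a feedback inhibitor of Notch, gave −0.42 with 1 hFc array measured and was not called, except with outlier spots kept (−0.46), with the mean of all its probes (−0.50) and with the authors' deposited values (−0.63). It lay −1.25 from VEGF-A (adjusted p = 1.83e-06). Against VEGF-A 8 effectors were lower (7.51% of all genes were) and 1 higher, and against VEGF Trap 6 were lower (5.74% of all genes) and 1 higher.

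RBPJ binds the core GTGGGAA, which was searched in the same way in the promoters of the Notch effectors. RefSeq held 9 of the 14 symbols with 10 promoters, of which 3 carried a match within 250 bases before the start (30%), against 1779 of 32851 promoters overall (5.42%). This list was made of known Notch effectors, and list and motif were likewise chosen with earlier results of these data known. The share of matches is therefore not a result of these arrays. Hes5, the effector with the largest fall, has 2 matches, 1 on each strand (chr4:154960673-154960876, plus strand), and Hey2 has 1 (chr10:30842954-30843020, minus strand). Both are shown in the direction of the gene with the matches in capitals. The third, Hes7, differed by −0.023 (adjusted p = 0.9).
Hes5: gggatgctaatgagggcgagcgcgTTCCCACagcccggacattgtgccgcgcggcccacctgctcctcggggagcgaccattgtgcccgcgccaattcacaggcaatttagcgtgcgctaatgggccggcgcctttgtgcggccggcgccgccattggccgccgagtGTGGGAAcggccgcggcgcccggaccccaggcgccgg
Hey2: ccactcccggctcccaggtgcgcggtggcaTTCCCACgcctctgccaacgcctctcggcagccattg

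Part of the proneural factors were higher with Dll4-Fc. Neurog2 (band), a factor that drives progenitors toward neurons, had no hFc value. It read 1.46, 1.06, 1.63 and 1.86 with Dll4-Fc, 4.1 above VEGF-A (adjusted p = 1.19e-09) and 2.55 above VEGF Trap (adjusted p = 1.73e-06), and its other probe gave 2.91 against hFc. With outlier spots kept the Neurog2 difference from hFc was 3.28 (adjusted p = 4.16e-09). Atoh7, which specifies ganglion cells, read 0.53, 1.3, 0.66 and 0.25 against −0.13, −0.55, −0.31 and −0.19 and rose by 0.98 (SE 0.17, adjusted p = 0.0012), with 0.22 on its other probe.

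Hes6, which opposes Hes1, rose by 0.64 (SE 0.09, adjusted p = 0.000178). Olig2 (band), a factor of retinal progenitors and oligodendrocytes, rose by 1.48 (1.12 on another probe), and Gadd45g (band), a cell cycle inhibitor induced by proneural factors, rose by 1.57 (1.71 against VEGF-A and 1.22 against VEGF Trap). Altogether 6 of 22 proneural and progenitor factors were higher and 1 lower, with a median of −0.051, so most of the list was not called. Over all genes 3.33% were higher and 1.94% lower. Without the band 3 of 15 were higher and 1 lower. Genes of later neuronal fates were not called, with −0.028 for Neurod1, −0.23 for Crx and −0.0024 for Otx2. The progenitor factor Six6 fell by 0.55 (adjusted p = 0.0173) but was no longer called without hFc 2, hFc 3, Dll4-Fc 2 or Dll4-Fc 4 (−0.55 to −0.46). Pax6 (−0.31) and Rax (−0.25) were not called.

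**Figure D3:**
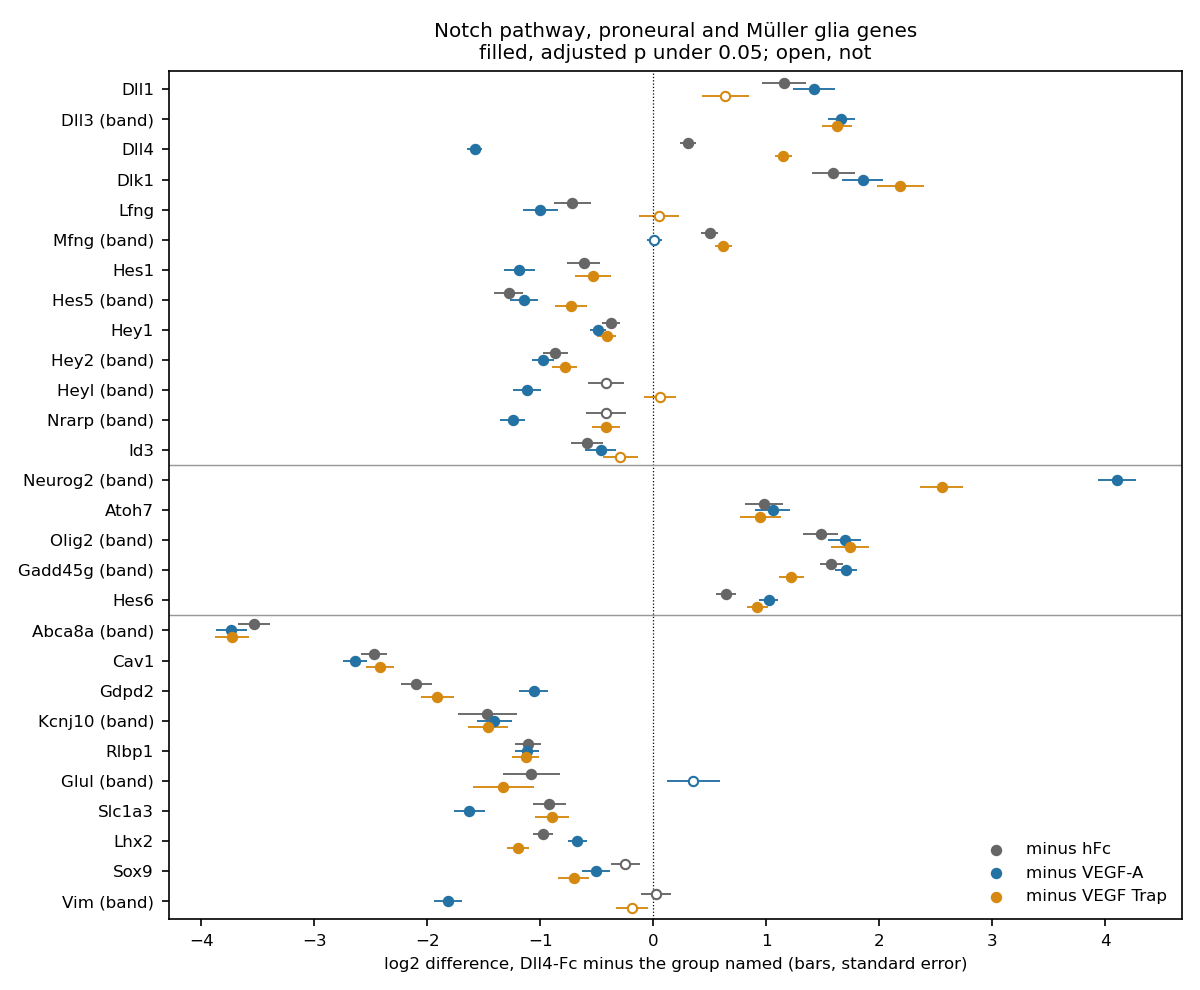
Log2 difference of the Dll4-Fc arrays from hFc, VEGF-A and VEGF Trap (horizontal axis, bars are standard errors) for 28 genes of the Notch pathway, proneural factors and Müller glia; filled points had an adjusted p under 0.05, open points did not, genes read from the band of rows are marked, and Dll3 and Neurog2 have no hFc value. Neurog2 lies far to the right and Abca8a and Cav1 far to the left in each comparison drawn, whereas Dll4 lies on opposite sides of 0 against VEGF-A (−1.58) and VEGF Trap (1.15).

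Müller glia span the retina, buffer potassium and recycle glutamate and retinoids. Of 28 of their genes tested, 18 were called lower and 0 higher (median −0.53, with 1.94% of all genes lower). Without the band 14 of 22 were lower. Abca8a (band), a lipid transporter, read −2.96, −3.12, −3.62 and −2.91 with Dll4-Fc and 0.26, 0.46, 0.38 and 0.43 with hFc, a fall of 3.53 (SE 0.14, adjusted p = 4.97e-10). The probe outside the band gave −3.62, and the differences from VEGF-A and VEGF Trap were −3.73 and −3.73. Cav1, the coat protein of caveolae, read −2.02, −2.39, −2.33 and −1.88 against 0.18, 0.45, 0.46 and 0.18 and fell by 2.47 (SE 0.11, adjusted p = 2.19e-09), with −2.32 on another probe. Both genes were separated from every other array of the series. Gdpd2, a glycerophosphodiesterase, fell by 2.1 (SE 0.14).

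Genes for the classical tasks of these glia fell by less. Rlbp1, the retinaldehyde carrier of the visual cycle, read −1.12, −1.27, −1.27 and −0.64 against −0.047, 0.13, 0.088 and −0.039. Dll4-Fc 4 was the least reduced, and all treated values lay below the hFc values. Rlbp1 fell by 1.11 (SE 0.11, adjusted p = 9.93e-06), with −1.12 from VEGF-A and −1.13 from VEGF Trap. The glutamate transporter Slc1a3 fell by 0.92 (SE 0.14, but −0.56 with the mean of all its probes), the transcription factor Lhx2 by 0.98 (SE 0.09, adjusted p = 3.16e-06), the membrane protein Mlc1 by 0.83 (SE 0.14) and the Wnt modulator Dkk3 (band) by 0.67 (−0.92 from VEGF Trap). Kcnj10 (band), the potassium channel Kir4.1, gave −1.47 with 1 hFc array measured and −1.41 against VEGF-A. Glul (band), glutamine synthetase, read −0.81, −0.91, −1.21 and 0.35 against 0.33, 0.41, 0.44 and 0.55, so that Dll4-Fc 4 overlapped the hFc range. It fell by 1.08 (adjusted p = 0.0152) but was no longer called without Dll4-Fc 1 or Dll4-Fc 3 (−1.02 to −0.89), without the band (−0.92) and with only these 2 groups fitted (−1.08).

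Other Müller glia genes did not follow. Sox9, which maintains glial fate, gave −0.25 (adjusted p = 0.333), Sox2 (band) −0.27, Clu −0.10 and Vim (band), the intermediate filament vimentin, 0.022 (adjusted p = 0.953). None of these 4 genes was called, although Sox9 was lower than with VEGF-A (−0.51, adjusted p = 0.00845) and VEGF Trap (−0.70, adjusted p = 0.00267). Against VEGF-A 19 genes of the list were lower and 0 higher, and against VEGF Trap 20 and 2. Of all genes 7.51% were lower against VEGF-A, and 5.74% lower and 8.97% higher against VEGF Trap. The astrocyte list had 1 gene of 9 tested higher (3.33% of all genes were), Gfap, the filament of astrocytes and of reactive Müller glia. Entpd2 of this list had no hFc value, and with outlier spots kept it differed from hFc by −1.33 (adjusted p = 5.02e-08). Gfap read −0.39, −0.79, 0.026 and 0.15 against −1.12, −1.21, −1.39 and −1.25 and rose by 0.99 (SE 0.15, adjusted p = 0.000422), yet it lay −1.27 from VEGF-A. Aqp4, the water channel of both glia, gave −0.86 and was not called (adjusted p = 0.0524), but was called lower in 6 of 20 alternative settings, among them the mean of all its probes (−0.84, adjusted p = 0.00846) and leaving out Dll4-Fc 4 (−1.08). Of 17 gliosis genes 5 were higher (3.33% of all genes were) and 0 lower. Against VEGF-A, however, 3 genes of the gliosis list were higher and 10 lower (6.31% and 7.51% of all genes were). Against VEGF Trap 6 were higher and 1 lower (8.97% and 5.74% of all genes were). Serpina3n (band), a protease inhibitor of reactive glia, read 0.81, −0.31, 0.73 and 1.84 against −0.73, −1.3, −0.97 and −0.39 and rose by 1.61 but was no longer called without hFc 2 (1.46), with 1.62 on another probe. A2m, alpha-2-macroglobulin, rose by 0.98 (adjusted p = 0.0286) but was no longer called in 8 of 20 alternative settings, among them leaving out hFc 1, hFc 4, Dll4-Fc 1, Dll4-Fc 3 or Dll4-Fc 4 (0.71 to 1.02).

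Neuronal lists showed no called gene. Rod genes were called in 0 of 12 by limma (1 higher and 1 lower at an unadjusted p under 0.05), cone genes in 0 of 8 (0 and 2), bipolar genes in 0 of 11 (0 and 2), amacrine and horizontal genes in 0 of 14 (2 and 0), and ganglion cell genes in 0 of 12 (0 and 1). Their medians were −0.0057, −0.095, −0.069, 0.0028 and −0.0046. Lens genes varied from array to array within a group, with list means of −0.62, 0.28, 0.33 and −2.94 on Dll4-Fc 1 to 4 and −2.49, −2.62, −2.7 and 1.12 on hFc 1 to 4, and 0 of 8 were called. The part of carried-over lens tissue in other results was not tested.

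Of 19 endothelial genes 5 were higher and 1 lower, or 31.6% (5.27% of all genes were called), with a median of 0.19. Over the alternative settings 2 to 6 were higher. Against VEGF-A 3 genes of the list were higher and 13 lower (6.31% and 7.51% of all genes were). Against VEGF Trap 17 were higher and 1 lower (8.97% and 5.74% of all genes were). Vwf, the clotting factor stored in endothelium, read 0.70, 0.53, 0.64 and 0.63 against −0.24, 0.21, −0.20 and −0.063 and rose by 0.70 (SE 0.09, adjusted p = 6.37e-05), with 0.37 against VEGF-A and 1.76 against VEGF Trap, and all Dll4-Fc values lay above those of every other array. Egfl7 (band), an endothelial matrix protein, rose by 0.55 (SE 0.09) but was no longer called with median centring (0.45). The receptor Tie1 rose by 0.31 (adjusted p = 0.0268) but was no longer called without hFc 1, hFc 3, hFc 4, Dll4-Fc 1 or Dll4-Fc 2 (0.28 to 0.32), with median centring (0.24) and with the Cy3 channel alone (0.28). The matrix protein Mmrn2 rose by 0.53 (SE 0.08) but lay −1.18 from VEGF-A. Pecam1 and Cdh5, junctional proteins of all endothelium, gave 0.12 and 0.24 and were not called. Kdr, the main VEGF receptor, read −0.70, −0.80, −0.53 and 0.04 against −0.055, 0.17, 0.024 and −0.063, with Dll4-Fc 4 inside the hFc range. It fell by 0.51 (adjusted p = 0.0406) but was no longer called in 12 of 20 alternative settings, among them leaving out hFc 1, hFc 2, hFc 3, hFc 4, Dll4-Fc 1, Dll4-Fc 2 or Dll4-Fc 3 (−0.54 to −0.41).

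Genes of tip cells, which lead vessel sprouts, were called higher in 5 of 14, or 35.7% (median 0.40, with 3.33% of all genes higher), but in 1 with median centring in place of loess. The potassium channel subunit Kcne3 read −1.4, −1.51, −1.7 and −2.2 against −2.48, −2.85, −2.67 and −2.33 and rose by 0.88 (SE 0.16, adjusted p = 0.0022), with −3.49 against VEGF-A. The vessel matrix laminin Lama4 (0.40), the sialomucin Cd34 (0.40) and the nidogen Nid2 (0.62) were also called. The call did not hold everywhere: Lama4 was no longer called with median centring (0.32) and with the Cy3 channel alone (0.31). Cd34 was no longer called without hFc 4 or Dll4-Fc 4 (0.32 to 0.37), with median centring (0.32) and with the Cy3 channel alone (0.37). Nid2 was no longer called in 10 of 20 alternative settings, among them leaving out hFc 1, hFc 2, hFc 3, Dll4-Fc 1 or Dll4-Fc 4 (0.47 to 0.65). Esm1 (band, 0.45), Angpt2 (band, 0.017, 1 hFc array measured) and Apln (−0.20), secreted products of tip cells, were not called, and lay −6.21, −2.68 and −2.93 from VEGF-A. Esm1 was called without hFc 4 (0.81). The list was lower than with VEGF-A in 12 genes (7.51% of all genes were) and higher than with VEGF Trap in 9 (8.97% of all genes). Barrier genes (up to 2 higher or 1 lower in an alternative setting) were called in 0 of 12 (3 higher and 1 lower at an unadjusted p under 0.05). Mural genes had 1 of 15 lower (1.94% of all genes were), the myosin light chain Myl9 (band) at −0.43 (adjusted p = 0.0298), which was no longer called without hFc 2, hFc 3, hFc 4, Dll4-Fc 1, Dll4-Fc 2 or Dll4-Fc 3 (−0.46 to −0.37) and with median centring (−0.48).

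Among 21 vasoactive genes 1 was higher and 3 lower (3.33% and 1.94% of all genes were). The vasoactive peptide gene Calca read −3.2, −2.97, −3.24 and −3.06 against −2.15, −2.34, −2.29 and −1.18 and fell by 1.13 (SE 0.20, adjusted p = 0.00164), but its other probe gave −0.067. Its hFc 4 value stood well above the other hFc values, and the groups did not overlap. Calcrl (band), a receptor for the same peptide, gave −0.79 (adjusted p = 0.0337) but was no longer called without hFc 1, hFc 2, hFc 4, Dll4-Fc 1, Dll4-Fc 2 or Dll4-Fc 3 (−0.85 to −0.61), with only these 2 groups fitted (−0.79) and with hFc 1 and hFc 2 averaged (−0.83), and the mean of its probes gave −0.48. The endothelin receptor Ednrb was called at −0.35 (adjusted p = 0.048) but was no longer called in 14 of 20 alternative settings, among them leaving out hFc 1, hFc 2, hFc 3, hFc 4, Dll4-Fc 1 or Dll4-Fc 2 (−0.37 to −0.23). Ptgs1 (band), a prostaglandin synthase, rose by 0.65 (SE 0.13). Agt (band), angiotensinogen, had no hFc value and was lower than with VEGF-A (−1.18) and VEGF Trap (−1.27).

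Of 19 cell cycle genes 4 were higher than in hFc and none lower (median 0.34, with 3.33% of all genes higher). The alternative settings gave 3 to 10 higher. Birc5, an inhibitor of apoptosis needed for mitosis, rose by 0.83 (SE 0.13) and the mitotic cyclin Ccnb2 by 0.63 (SE 0.10), yet they lay −1.39 and −0.93 from VEGF-A. Ube2c, which marks mitotic proteins for breakdown, rose by 0.50 but was no longer called with median centring (0.46). Ccnb1 (band) rose by 0.63 but was no longer called in 5 of 20 alternative settings, among them leaving out hFc 3 or Dll4-Fc 1 (0.56 to 0.58), and it gave 0.22 on its probe outside the band. The proliferation marker Mki67 read 0.004, −0.15, −0.35 and −0.017 against −1.31, −0.60, −0.82 and −0.12, a difference of 0.59 that was not called (adjusted p = 0.106), except without hFc 4 (0.78). The same list was lower than with VEGF-A in 17 genes (7.51% of all genes were) and higher than with VEGF Trap in 16 (8.97% of all genes). Hypoxia and glycolysis genes were higher than in hFc in 2 of 18, immediate early genes in 1 of 13 and sterol genes in 1 of 18, with none lower. Over all genes 3.33% were called higher, so counts of 1 or 2 are not read as a result about these lists. The mitochondrial protein Bnip3 (band, 0.43, adjusted p = 0.0206) was higher but no longer called in 9 of 19 alternative settings, among them leaving out hFc 1, hFc 3, Dll4-Fc 1 or Dll4-Fc 3 (0.37 to 0.44). The glycolytic enzyme Pgk1 (band, 0.35) was higher but no longer called in 11 of 19 alternative settings, among them leaving out hFc 1, hFc 2, hFc 4, Dll4-Fc 1, Dll4-Fc 3 or Dll4-Fc 4 (0.32 to 0.35). The nuclear receptor Nr4a1 (0.40) was higher but no longer called in 11 of 20 alternative settings, among them leaving out hFc 2, hFc 3, hFc 4, Dll4-Fc 1, Dll4-Fc 2 or Dll4-Fc 4 (0.33 to 0.44). Ch25h, which makes 25-hydroxycholesterol, rose by 1.43 but was no longer called without hFc 1, hFc 2, hFc 3 or Dll4-Fc 3 (1.06 to 1.44), with only these 2 groups fitted (1.43) and with hFc 1 and hFc 2 averaged (1.24), and lay −3.88 from VEGF-A.

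The largest changes held further genes outside these lists. Pmch, the precursor of melanin-concentrating hormone, rose by 3.84 (SE 0.33), but its other probe gave 0.38. Plac8, expressed in myeloid cells, read 1.69, 0.074, 2.36 and 1.13 against −1.67, −1.93, −2.05 and −1.02 and rose by 2.98 (SE 0.34, adjusted p = 2.95e-05), with Dll4-Fc 2 well below the other treated arrays. Cd72 (band), an inhibitory receptor of B cells and myeloid cells, rose by 2.91, with 2.45 to 2.88 on its other probes and 2.56 against VEGF-A. Among the falls were Krt19, a keratin (−1.74, SE 0.19), the Wnt antagonist Frzb (band, −1.66, −1.78 against VEGF-A), the secreted protein Egfl6 (−1.57, and −2.83 with the deposited LogRatio column), Metrn, a glial differentiation factor (−1.52), Efhd1, a mitochondrial calcium-binding protein (−1.48), and Bmp3, a ligand that antagonises other BMPs (−1.44, SE 0.09). Efhd1 read −1.08, −1.04, −1.24 and −0.85 against 0.57, 0.40, 0.44 and 0.31, and the groups were far apart. Col2a1, a collagen, fell by 1.4 but gave −0.20 against VEGF-A (adjusted p = 0.528) and −0.027 on 1 of its other probes. Gm2115 fell by 1.79, with 0.10 on its other probe. Zfp69, a zinc finger protein, fell by 1.41 (adjusted p = 0.0227) but was no longer called without hFc 1, Dll4-Fc 1, Dll4-Fc 3 or Dll4-Fc 4 (−1.39 to −1.08).

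The treated retinas differed among themselves, and not in the same order for each group of genes. Interferon-induced effectors measured on every array averaged 0.72, 1.14, 1.86 and 0.30 on Dll4-Fc 1 to 4 and −1.19, −1.07, −1.07 and −0.76 on hFc 1 to 4. Dll4-Fc 3 was highest and Dll4-Fc 4 lowest, and the VEGF-A and VEGF Trap arrays lay at −1.33 to −0.98 and −0.98 to −0.72. Microglia and macrophage genes averaged 0.56, 0.22, 0.53 and 0.44 against −0.15, −0.23, −0.18 and −0.25, with Dll4-Fc 2 lowest. Neutrophil genes averaged 0.38, −0.026, 0.23 and 0.34 against 0.19, −0.055, 0.016 and −0.0019, and Dll4-Fc 2 was again lowest and lay within the hFc range. Müller glia genes averaged −0.80, −0.90, −0.93 and −0.49 against −0.12, −0.049, −0.064 and −0.07, with Dll4-Fc 4 nearest to hFc. In the lists of interferon-induced effectors, of microglia and macrophages and of Müller glia, the averages of all treated arrays lay on one side of all 12 other arrays. The part of these differences between arrays in other results was not tested.

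**Figure D4:**
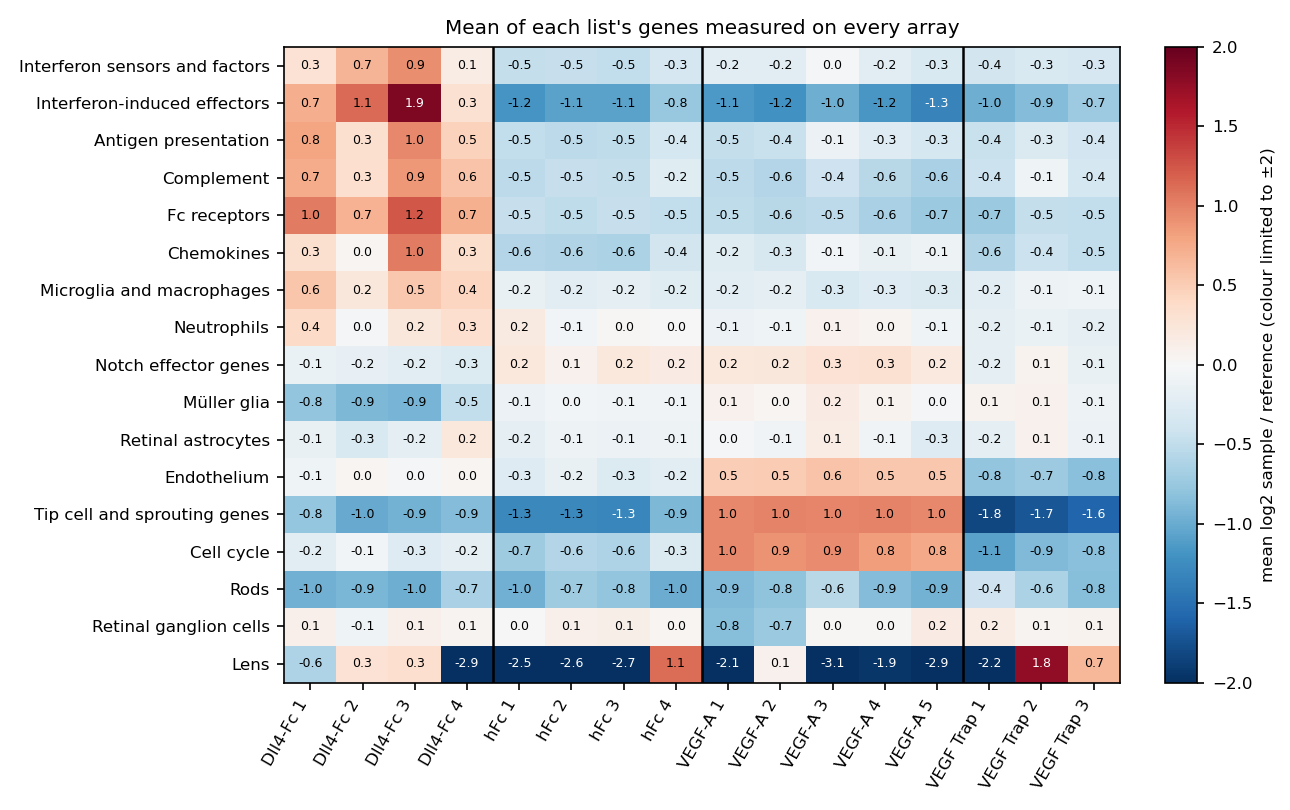
Mean log2 ratio of sample over reference of the genes of 17 lists measured on every array (rows), for each of the 16 arrays (columns, ordered by treatment); red is above and blue below the reference pool, with colours limited to ±2. The interferon, Fc receptor and microglia rows are raised on all Dll4-Fc arrays, the Müller glia row is lowered there, the endothelial, tip cell and cell cycle rows are highest with VEGF-A, and the lens row varies within every group.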

How the data were processed

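Retinal RNA of 16 samples was labelled with Cy3 and hybridised with a Cy5 reference pool to Agilent 2-colour arrays, per the labels, and read with Agilent Feature Extraction 9.5.1.1, per the submitters' processing notes and the file headers. The deposited scanner files give the mean and local background intensity of each spot. They also give the authors' LogRatio column, the log10 of Cy5 over Cy3 after background subtraction and dye normalization, per the file headers. The authors' deposited value table matched a natural log of sample over reference, not centred. Both served as alternatives.

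Intensities were background-corrected (normexp, offset 50) and loess-normalized within each array, with control spots at weight 0 and outlier-marked spots left out, and expressed as log2 of sample over reference. Of 43426 probes, 39788 had a Cy3 signal well above background on 3 arrays or more and were kept, and the brightest probe stood for a gene. Of 23362 genes, 18470 had a symbol in the RefSeq table, and 542 had no value on any hFc array and were not tested against hFc. limma 3.58.1 in R 4.3.3 fitted 4 groups over 16 arrays (12 residual degrees of freedom), with Benjamini-Hochberg adjustment; statmod 1.5.0 served the slide block. The number of arrays limits the precision: the median standard error of a difference was 0.092. No spot was saturated. The fit was tested on simulated data with independent noise and no slide effect. Of 100 genes changed by 0.5 it called 61, and of 100 changed by 1 it called 92. A gene not called may therefore still differ.

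The gene lists, the comparison and the motifs were chosen with earlier results of these data known. Genes named are the 12 largest called rises and falls with no overlap between groups, and list members, with at least the called members of smallest p, up to 4 each way in a list; a few genes that the rule names are not reported here. A bound of "at least" a fold set the mean of the brighter group against the background limit of the dimmer one. Alternatives were the LogRatio column, the deposited table, median centring, Cy3 alone, other filters and probe rules, the band of rows left out, outliers kept, other sets of samples, the slide as a random block and each array left out.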

Additional observations from a re-analysis of the deposited data

Results flagged for a closer look

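Among 128 groups of 4 arrays checked (list averages and largest changes), 12 held an array far from the other arrays of its group. Chance gives about 1 in 20 for independent values. The groups checked share arrays and some lists share genes, so the count cannot be set against that rate. Of the 12 flagged groups, 9 concerned hFc 4. Its average over chemokine genes was −0.374 with the nearest hFc array at −0.589, over tip cell genes −0.903 against −1.29, and over lens genes 1.12 against −2.49. Cfb on hFc 4 read −1.8, against −2.88 on the nearest hFc array. The interferon-induced genes Rtp4 (−1.5 against −1.61), Tgtp1 (−0.961 against −1.94) and Isg15 (−1.23 against −1.74) were likewise highest on hFc 4, as was Cd72 (−1.38 against −1.74). Egfl6 was lowest there (0.127 against 0.537). Among the Dll4-Fc arrays, barrier endothelium genes averaged 0.186 on Dll4-Fc 4 with the nearest at −0.107. Zfp69 read 1.5 on hFc 1 against 0.246, and −0.681 on Dll4-Fc 2 against −0.919. The part of these arrays in the group differences was not tested beyond leaving each out in turn.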

How the results depend on the processing

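Alternative settings gave 18 to 20 values for each of 177 named genes called against hFc, all 20 for 139 of them. In every setting that gave a value 126 kept their call, 51 lost it in at least 1, and 0 changed direction. Against hFc the lower genes numbered 293 with the Cy3 channel alone, and the higher genes 503 without the band of rows, where 434 were lower. Leaving out 1 array at a time gave 873 to 1157 called genes, 586 to 759 higher and 287 to 429 lower, the last fewest without hFc 3. Median centring gave 2112 called genes against VEGF Trap, 1055 higher and 1057 lower in place of 2095 and 1340. Single arrays left out gave 847 to 1524 lower there, with 877 without Dll4-Fc 1 and 847 without Dll4-Fc 3. Genes with all Dll4-Fc values outside those of every other array numbered 767 to 1121 when 1 array was left out. The cause of these shifts was not tested, except that fewer genes or arrays enter where a band or an array is left out. No paired analysis was possible because the replicate numbers were given in accession order and no part of a sample code joins a Dll4-Fc array to one of another group. The median difference of all genes ranged from −0.046 to 0.0017 over the settings. Precision is limited by 4 arrays a group, by one slide each for Dll4-Fc and hFc, and by hFc spots lost in the band.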

Other observations

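The genes given here lie outside the lists and were chosen after their values were seen. Each was called against hFc, VEGF-A and VEGF Trap, which share the Dll4-Fc arrays. Each also had all 4 Dll4-Fc values outside those of the other 12 arrays. Unlike the named genes above, they were not examined on other probes or in the alternative settings. Higher were Vxn (2.59), a regulator of neurogenesis, Cdkn1c (1.16), a cell cycle inhibitor, Neurog3 (1.07), a proneural factor, Igfbpl1 (1.77), and the peptide precursors Sct (2.49) and Nts (1.91). Nts read 1.4, 1.59, 1.59 and 0.51 on the Dll4-Fc arrays against −0.55, −0.72, −0.66 and −0.60 on the hFc arrays. Vxn read 1.66, 1.69, 1.85 and 0.73 against −1.26, −1.25, −1.03 and −0.91, and the groups were far apart.

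Also higher were the lymphoid and myeloid surface protein Cd52 (2.48), the sialic acid receptor Siglec1 (1.6), the oxidase subunit Cybb (1.64), the integrin Itgb2 (1.18) and the leukocyte phosphatase Ptprc (1.59, in the band). Lgals3bp (2.72), Ly6a (2.07), Ly6c1 (2.09) and haptoglobin Hp (2.13) were higher too. Siglec1 read 1.21, 0.53, 1.99 and 0.68 against −0.69, −0.59, −0.54 and −0.16. Of the lists of blood cells, 0 of 11 neutrophil genes and 3 of 13 lymphocyte genes were called (5.27% of all genes were). Only 7 of these neutrophil genes were well above background on all 8 Dll4-Fc and hFc arrays.

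The lipid transporters Abca8b (−1.22) and Abca6 (−1.15) fell beside Abca8a, and Cav2 (−1.1), the partner of Cav1, fell beside Cav1. Cav2 read −0.85, −1.42, −1.08 and −0.72 against −0.18, 0.23, 0.11 and 0.17. The water channel Aqp5 fell by 1.34, the bile acid receptor Nr1h4 (band) by 1.34, the sphingosine phosphate receptor S1pr1 by 1.11, the glial gene Ndrg2 by 1.12, the growth factor Ptn by 0.99, and the glial adhesion protein Hepacam by 0.65. Nr2e1, a nuclear receptor of neural stem cells, fell by 0.77. The ETS factors Etv4 and Etv5, which respond to growth factor signals through ERK, fell by 0.67 and 0.50, and Etv4 lay −2.51 from VEGF-A.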
